A study of Mus musculus with 51 samples.

Results

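Imprinted genes were followed in adult mouse midbrain neurons of wt and mutant animals from strains named for Eed, a gene of Polycomb repressive complex 2 (PRC2). PRC2 is the enzyme complex that methylates lysine 27 of histone H3. The set was a list of 37 gene symbols out of 24564 genes in the deposited count table. It was drawn up with earlier results of these data known, and no measured value enters its rule. Of these, 36 stood under their own symbol, and Snrpn was divided over 3 rows. RNA-seq by the full-length Smart-seq2 method was done on neurons sorted by flow cytometry, in 51 libraries of 8 groups. Dopaminergic (mDA) neurons came from the strain labelled DatCreEed, with 9 wt animals and 10 mutants aged 4 months, and 8 of each genotype aged 8 months. Serotonergic (5HT) neurons came from SertCreEed, with 4 libraries in each of the wt and mutant groups at the same ages. Each library came from its own animal. Both strain names carry a Cre driven by a transmitter transporter gene and Eed, which encodes a core PRC2 subunit; the labels do not say whether wt animals carry the Cre, or which Eed alleles the mutants hold. The question was whether imprinted loci in adult neurons differ in expression between these mutants and wt. The counts hold no measure of PRC2 function.

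An imprinted gene is transcribed mainly from the copy inherited from one parent. At many imprinted loci, though not at all, the mark that tells the copies apart is DNA methylation laid down in the germ line at control regions. That methylation is kept through life by factors such as ZFP57, TRIM28 and DNMT1. Some clusters add a long non-coding RNA, such as Kcnq1ot1 or Airn, that silences neighbours on its own chromosome, and in placenta PRC2 takes part in that silencing. In brain, imprinted genes are known for roles in growth, feeding, maternal behaviour and neuronal survival. The counts here are per gene and do not separate the parental copies, so a copy that is normally silent could be seen only as a higher total.

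In mDA neurons at 8 months 3 members passed the test between genotypes, and the start-site windows of these genes are printed here from RefSeq (GRCm38.p6), running from 250 bases before to 50 bases after an annotated start. Capitals mark CG pairs, the bases at which imprints of DNA methylation are written. Peg3 encodes a zinc finger protein and lies head to head with Usp29, another member, whose window on the other strand shares 263 of these 300 bases. The Peg3 window is chr7:6730370-6730669, minus strand, the Mirg window is chr12:109734731-109735030, plus strand, and the Igf2 window is the third of its listed windows, chr7:142658755-142659054, minus strand.
Peg3: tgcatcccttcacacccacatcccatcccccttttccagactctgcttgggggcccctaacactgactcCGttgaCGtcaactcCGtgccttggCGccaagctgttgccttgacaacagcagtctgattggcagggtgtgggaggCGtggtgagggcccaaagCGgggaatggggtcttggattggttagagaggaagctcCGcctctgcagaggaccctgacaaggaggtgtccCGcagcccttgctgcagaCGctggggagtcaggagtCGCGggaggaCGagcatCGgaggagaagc
Mirg: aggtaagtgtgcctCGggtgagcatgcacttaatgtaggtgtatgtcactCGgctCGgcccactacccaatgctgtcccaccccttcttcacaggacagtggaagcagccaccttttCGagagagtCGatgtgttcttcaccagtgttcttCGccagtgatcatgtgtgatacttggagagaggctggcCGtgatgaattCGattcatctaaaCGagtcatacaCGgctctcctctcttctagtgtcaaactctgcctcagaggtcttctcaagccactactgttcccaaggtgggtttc
Igf2: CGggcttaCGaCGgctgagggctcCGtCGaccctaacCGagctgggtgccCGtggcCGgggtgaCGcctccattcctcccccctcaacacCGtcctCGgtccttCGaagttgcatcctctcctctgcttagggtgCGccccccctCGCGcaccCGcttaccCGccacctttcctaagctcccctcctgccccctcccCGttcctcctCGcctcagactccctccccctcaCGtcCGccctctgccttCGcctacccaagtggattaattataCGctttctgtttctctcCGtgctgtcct
These windows held 13, 10 and 24 CG pairs. The Igf2 window printed is the richest of those listed for the gene, and its other windows held 2, 14 and 7. Over the 46 windows of the 30 members found in the table the median was 13.5, against 7 over all 32841 windows of this length. The hexamer TGCCGC, on which ZFP57 binds when it is methylated, was searched on either strand and found in 10 of the 46 windows (21.7%), in 9 members, and in 11.6% of all windows. None of the 3 printed windows holds it, though another of the Igf2 windows does. A match here is a match of letters and no binding was measured. Peg10, Rtl1, Impact, H19, Sgce, Peg13 and Trappc9 were not matched.

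Mirg, a long non-coding RNA at the end of the Dlk1-Meg3 cluster, is the host of 19 listed mature microRNAs from 10 hairpins, which is why some are shown. Capitals mark the seed, bases 2 to 8, which pairs with target messages. The first pair below shares one seed and the others have seeds of their own.
mmu-miR-453: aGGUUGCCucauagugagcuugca
mmu-miR-496a-5p: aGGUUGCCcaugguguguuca
mmu-miR-410-3p: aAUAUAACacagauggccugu
mmu-miR-369-3p: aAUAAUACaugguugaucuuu
The libraries hold longer RNA, and none of these microRNAs was measured.

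Levels are CPM, each gene's counts divided by the library's total and multiplied by 1000000, on library sizes scaled by the TMM method, given as mean ± SD over libraries. Total counts per library ran from 1644460 to 12250492, so that 3 counts stood for 0.245 to 1.82 CPM. A call is an adjusted p under 0.05 in the quasi-likelihood test of edgeR, adjusted by Benjamini and Hochberg's method over all genes tested. Intervals are the log2 fold change ± 2 SE. The neurons matched their labels by their defining genes: Th had a mean of 1690 to 1910 CPM in the wt mDA groups and 10.9 to 20.7 in wt 5HT, while Tph2 had 2500 to 2730 in wt 5HT. Eed itself was 10.2 to 14.1 CPM in the wt group means and 17.7 to 24.9 in the mutant ones; since a deleted exon cannot be seen in a gene's total, this checks no label, and mutant means labelled mutant throughout. In mDA libraries, set1 at 4 months held only male wt and only female mutants, and set3 the reverse, while set3 at 8 months held 2 wt and 0 mutants. All 5HT libraries were of set1.

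Together the members took a large share of the RNA, nearly all of it from 1 gene. Meg3 (chr12:109540996-109571729), a maternally expressed nuclear RNA, had a group mean of 4.38% to 5.74% of all counts, where all members together had 5.16% to 6.55%. Per kilobase of annotated exon, in wt mDA at 4 months, Meg3 stood at 2720 CPM per kb. The next levels on that scale were 164 for Dlk1, a membrane protein of the Notch ligand family, 137 for Nnat, a small proteolipid of the endoplasmic reticulum, and 121 for Ndn, a MAGE protein of the Prader-Willi region. At the low end, Igf2 had 0.454 CPM per kb, H19 0.476 and Ascl2 0.322.

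Several members were near or below the limit of the data. Phlda2, a growth regulator of the Kcnq1ot1 domain, had 0 counts in all 4 wt groups, and 5 to 8 counts in all libraries of each mutant group together. Mkrn3 had 2 counts or fewer in 6 of the 8 groups, with 26 of the 34 counts of mutant mDA at 8 months in 1 library and all 63 counts of mutant 5HT at 8 months in 1 library. H19, the maternal RNA beside Igf2, had group means of 0.0834 to 2.73 CPM. The rows of Snrpn held 0 counts in the first, and group means of 0.279 to 1.75 CPM in the second and 0.719 to 4.26 in the third, and 34.1% of its annotated exon bases are shared with other genes, among them Snurf. Since the sources used here do not give how reads over shared bases were counted, Snrpn is not measured as a gene.

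Levels were compared first between the wt neurons of both types. Of 34 rows tested, 15 were called (44.1%), 7 higher and 8 lower in mDA than in 5HT neurons. Over all 16178 genes tested 21.7% were called, 11.3% higher and 10.4% lower. Plagl1, a zinc finger factor that regulates other imprinted genes, had 22.0 ± 14.5 CPM (n = 9) and 33.5 ± 17.1 (n = 8) in mDA at 4 and 8 months, and 7.01 ± 8.49 and 2.53 ± 1.85 in 5HT (n = 4 each; log2 fold change 2.59, SE 0.46, edgeR adjusted p = 6.89e-05). Dlk1 ran from 782 to 1130 and 605 to 1200 CPM in mDA at 4 and 8 months, and from 234 to 387 and 174 to 538 in 5HT, with no overlap (log2 fold change 1.42, SE 0.15, edgeR adjusted p = 2.89e-09). Nnat was higher in mDA by 1.16 on the log2 scale, as were Rian and Rtl1, neighbours of Dlk1 in its cluster, by 0.74 each. The annotated span of Rtl1, a retrotransposon-derived protein gene, holds 15 microRNA hairpins, most of them on the other strand, and the use of strand in the counting is not given in the sources used here. Meg3 and Mirg of the same cluster had log2 fold changes of 0.25 and 0.16 and were not called.

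On the other side, Peg10, a retrotransposon-derived capsid gene, was lower in mDA, at 27.2 ± 7.13 and 28.4 ± 10.9 CPM against 92.8 ± 27.9 and 111 ± 27.2 in 5HT (log2 fold change -1.88, SE 0.18, edgeR adjusted p = 2.13e-10). Gnas, which encodes the stimulatory G protein alpha subunit, was lower by -0.96, and Magel2, a MAGE protein of endosomal sorting, by -1.12. Inpp5f (-0.67), Peg3 (-0.54), Usp29 (-0.56), Ndn (-0.63) and Mest (-0.57) were lower too. Peg3 and Usp29, with the shared start region, thus stood on the same side. Zrsr1 (0.69) and H19 (2.87) were higher in mDA but lost the call when some of the 8 single 5HT libraries were left out, 5 of them for Zrsr1 and 6 for H19. Within set1 alone, which holds both cell types, 13 of 35 rows were called, against 12.6% of all genes. These were 12 of the 15 and Igf2r (0.64, edgeR adjusted p = 0.0456), the receptor that clears IGF2. Usp29 (-0.51, edgeR adjusted p = 0.0585) and Zrsr1 (0.92, edgeR adjusted p = 0.0704) were not called there, and H19 was too low to be tested. This fit was added after the data were seen. The set1 label is shared by both cell types and both ages, and whether it stands for 1 batch was not tested. Cell type and strain cannot be told apart in this comparison.

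**Figure D1:**
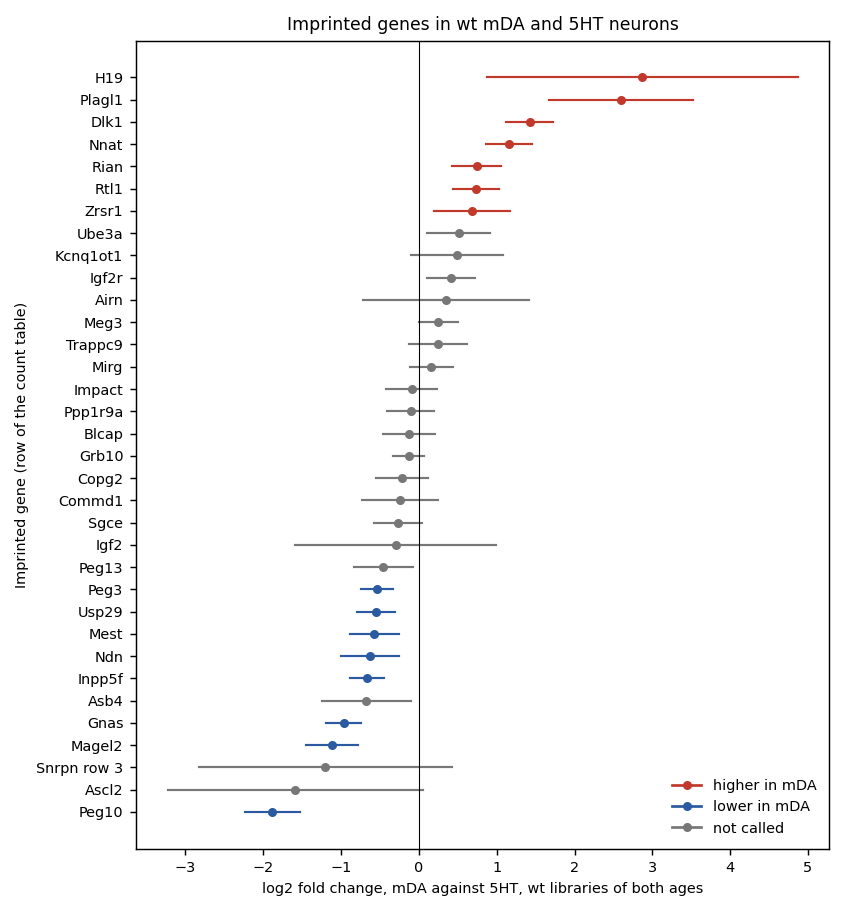
Log2 fold change of each tested imprinted gene between wt mDA and wt 5HT neurons, both ages together; points are estimates and lines the interval of 2 SE on each side. Of 34 rows, 7 lie to the right and 8 to the left in colour, from Peg10 at -1.88 to H19 at 2.87.

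In mDA neurons at 4 months, 0 of 31 tested members were called between mutants and wt by edgeR, where 1.17% of all 15425 genes were called. At an unadjusted p under 0.05 there were 9 members (29%, against 14.5% of all genes), and DESeq2 called 1, Ppp1r9a. The members' log2 fold changes ran from -0.69 to 0.96, with a median of 0.06 against -0.011 over all genes. For 25 of the 31 the whole interval lay within a 2-fold change in either direction, a log2 value of 1. Ppp1r9a, which encodes the actin-binding protein neurabin, had the smallest p. Its wt libraries ran from 40.2 to 101 CPM (median 81.7, n = 9) and its mutants from 52.4 to 162 (median 110, n = 10), so that the groups overlapped (log2 fold change 0.47, SE 0.13, edgeR adjusted p = 0.0697).

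Kcnq1ot1 (chr7:143213111-143296547), the paternally expressed RNA that silences the Kcnq1 domain in cis, had 896 ± 481 CPM in wt and 1520 ± 767 in the younger mutants (log2 fold change 0.62, SE 0.20, edgeR adjusted p = 0.116). Ndn had a median of 455 CPM in wt and 183 in mutants (log2 fold change -0.62, SE 0.20, edgeR adjusted p = 0.116). Its mutant libraries spread from 89 to 785 CPM, more widely than the wt libraries, at 349 to 609. Within set1 alone, where sex and genotype cannot be told apart, 11 of 31 members were called, against 11.2% of all genes. Of these, Kcnq1ot1 (1.23), Peg3 (0.78), Mirg (0.75), Ppp1r9a (0.75), Ube3a (0.67) and Meg3 (0.64) were higher in mutants, and Ndn (-1.57), Blcap (-1.27), Peg13 (-0.93), Dlk1 (-0.79) and Impact (-0.67) lower. Within set2 alone 0 were called and 3 had an unadjusted p under 0.05. Plagl1 had the highest estimate of the members at 4 months, with 4.32 to 44.1 CPM in wt (median 21.8) and 13.6 to 84.6 in mutants (median 44.7), and the ranges overlapped (log2 fold change 0.96, SE 0.35, edgeR adjusted p = 0.174). Commd1, a copper homeostasis gene whose intron holds Zrsr1, had the lowest (-0.69, edgeR adjusted p = 0.317). In set2 alone Plagl1 was at 2.16 (edgeR adjusted p = 0.101). Without the 4 set1 mutants 0 were called and 4 had an unadjusted p under 0.05. No share of all genes is given here for this setting or for set2 alone, so these counts stand without a background.

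Kcnq1ot1 and Ndn were set against each other from library to library. The mutant D186 had the highest Kcnq1ot1 of its group at 4 months, 2570 CPM, and the lowest Ndn, 89. The mutant C213 had the lowest Kcnq1ot1, 284 CPM, and the highest Ndn, 785. Transcripts outside the list moved too. Malat1, a nuclear RNA, had 58500 CPM in D186 and 33000 in C213, and Tuba1a, a cytoplasmic tubulin message, had 160 and 1590; both were picked after their values were seen. All 6 female mutants at 4 months had 1280 to 1650 CPM of Peg3, 299 to 379 of Mirg and 128 to 329 of Tuba1a. The 4 male mutants of that age had 759 to 1010 of Peg3, 137 to 198 of Mirg and 731 to 1590 of Tuba1a, with no overlap. In wt at the same age the sexes overlapped, with Peg3 at 866 to 1260 CPM in 4 wt females and 834 to 1090 in 5 wt males. Total counts split these mutants in the same way, at 1654667 to 3017630 in the females and 4094640 to 4587312 in the males. The part of sex, set, depth and RNA composition in these differences was not tested.

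**Figure D2:**
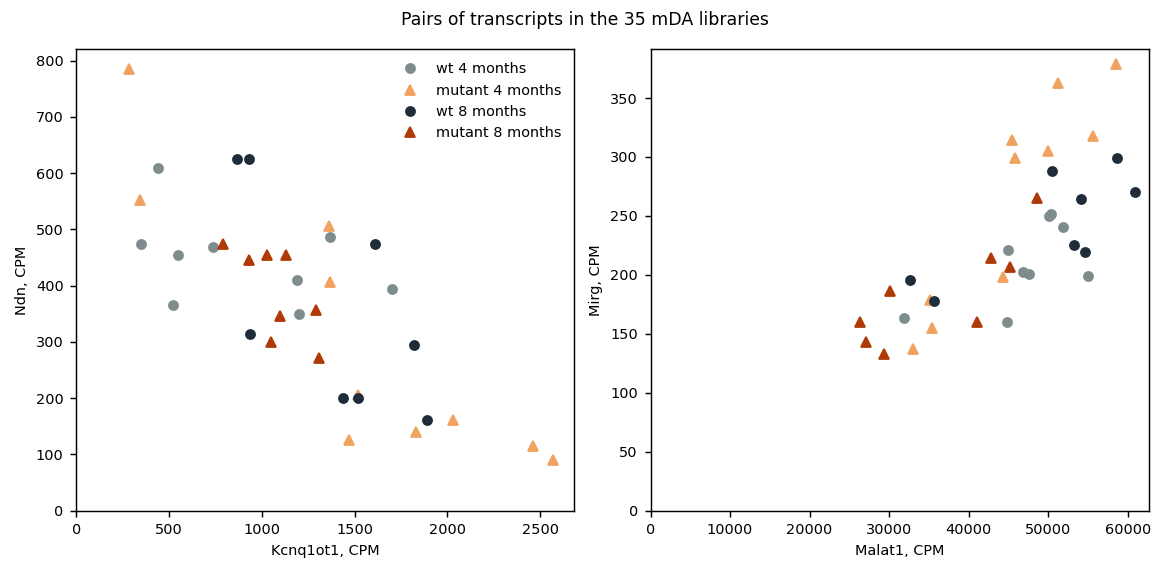
Ndn against Kcnq1ot1 (left) and Mirg against Malat1 (right), in CPM, 1 point for each of the 35 mDA libraries, shaped by genotype and shaded by group. On the left, the 4-month mutants reach from 284 CPM of Kcnq1ot1 with 785 of Ndn to 2570 with 89; on the right, libraries low in Malat1 are also low in Mirg.

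At 8 months in mDA neurons, 3 of 31 tested members were called (9.68%), against 4.32% of all genes. Igf2 was higher in mutants, where 2.44% of all genes were called higher, and Mirg and Peg3 were lower, where 1.88% were. At an unadjusted p under 0.05 there were 12 members (38.7%), against 17.5% of all genes. The members' median log2 fold change was 0.097, against 0.016 over all genes, and for 26 of the 31 the whole interval lay within a log2 value of 1. In 0 of the 31 did the mutant libraries lie wholly outside the wt range, as they did for 1.28% of all genes tested.

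Igf2 (chr7:142650768-142666816) encodes a growth factor that is read from the paternal copy in many tissues, though not in all. In adult brain it is known mostly from the meninges, choroid plexus and vessels, and the copy read was not measured here. Its wt libraries at 8 months had from 0.208 to 5.51 CPM (median 1.93, n = 8). The mutants had 1.5 in D265, 3.07 in D175, 7.07 in D276, 12.2 in C42, 13.8 in D282, 22.6 in D161, 29.9 in D170 and 50 in D176. Of these, 6 lay above every wt library and 2 within the wt range. The log2 fold change was 2.76 (SE 0.70, edgeR adjusted p = 0.0136), with means of 1.86 ± 1.72 and 17.5 ± 16.3 CPM. The call held with each of the 16 libraries of the comparison left out in turn (2.54 to 3.03, highest edgeR adjusted p = 0.0436). Within set1 alone it was 2.7 (edgeR adjusted p = 0.0605) and within set2 alone 3.21 (edgeR adjusted p = 0.0654).

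Some marker lists of other cells moved with Igf2 from library to library and others did not. All 11 endothelial and mural markers had a higher mean in these mutants than in wt, and their sum spanned 9.92 to 887 CPM in the mutant group, with 10.3 to 57.2 in the wt group. D161, D170 and D176, the 3 libraries highest in Igf2, were also the 3 mutants with a sum over 100 CPM, and all 3 were males of set2. Of 8 leptomeningeal and fibroblast markers 7 had a higher mean, with sums of 15.6 to 59.6 CPM in mutants and 11.6 to 32.8 in wt, and D176 was highest. All 10 astrocyte markers had a higher mean in mutants, with sums of 424 to 1440 CPM against 338 to 612 in wt, and the same 3 libraries were the highest. Of 8 ependymal and choroid plexus markers 6 had a higher mean, with sums of 15.7 to 197 CPM in mutants and 11.8 to 112 in wt. That list did not follow Igf2: its sum was highest in D175, which had 3.07 CPM of Igf2, and was 38.5 in D176, which had the most. No marker of these 4 lists was at 0 in these groups. The row of the beta-globin genes Hbb-b2 and Hbb-bt had 75.6 ± 61.5 CPM in mutants and 16.3 ± 10.8 in wt. The separate erythroid list, of which 2 of 5 genes stood in the table, summed to 6.14 ± 3.16 in mutants and 6.84 ± 3.3 in wt, with 0 of the 2 higher and Hbb-bs at 0. Without the 3 endothelial-rich mutants, left out after the values were seen, Igf2 had a log2 fold change of 2.01 and was not called (edgeR adjusted p = 0.208). Igf2 shares 64.5% of its annotated exon bases with 2 other genes, Gm49394 and its antisense RNA Igf2os. Of its 5723 exon bases, 3596 are shared on the same strand and 98 on the opposite strand. The row of Igf2os had 0.631 ± 0.682 CPM in mutants and 0.326 ± 0.308 in wt. No value of Gm49394 is given here, and how reads over the shared bases were counted is not known.

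**Figure D3:**
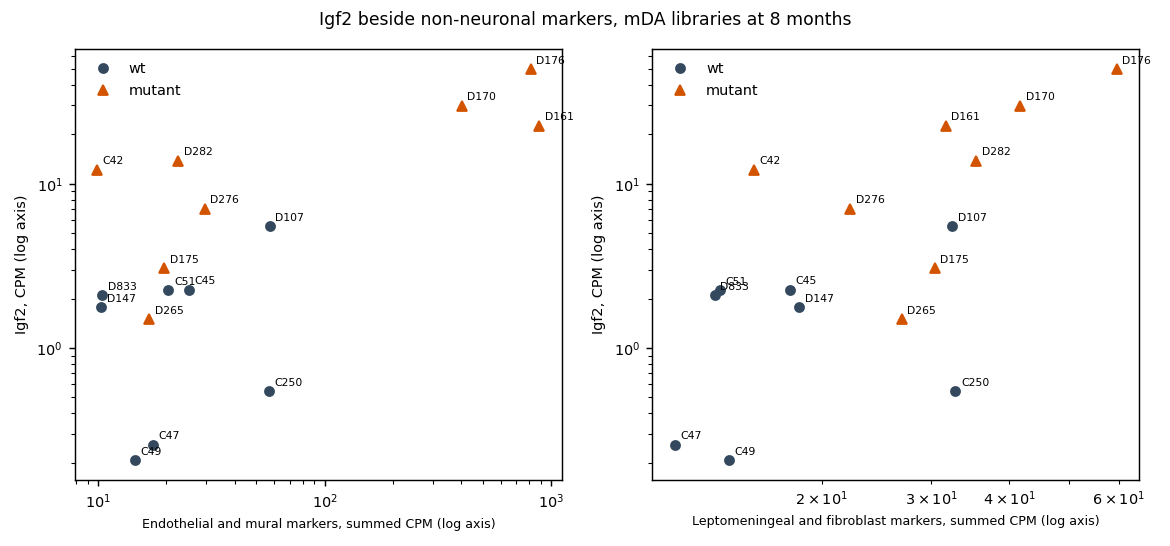
Igf2 level against summed endothelial and mural markers (left) and leptomeningeal and fibroblast markers (right) in the 16 mDA libraries at 8 months, all in CPM on log axes, with animal numbers beside the points. D161, D170 and D176 stand apart at 22.6 to 50 CPM of Igf2, while C42 and D282 reach 12.2 and 13.8 at endothelial sums no higher than the top of the wt range.

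Peg3 (chr7:6703892-6730462) is a paternally expressed zinc finger gene linked to maternal behaviour. Its wt libraries at 8 months ran from 960 to 1560 CPM (median 1200, n = 8) and its mutants from 866 to 1110 (median 928, n = 8). The ranges overlapped, with 5 mutants below the lowest wt library. The log2 fold change was -0.47 (SE 0.13, edgeR adjusted p = 0.0295). Without a term for sex it was -0.36 (edgeR adjusted p = 0.224), in a fit of the 2 groups alone -0.30 (0.227), and within set2 alone -0.16 (0.886). Usp29, a deubiquitinase gene on the other side of the shared start region, had 89.2 ± 21.3 CPM in wt and 72.4 ± 8.68 in mutants (log2 fold change -0.34, edgeR adjusted p = 0.211).

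Mirg (chr12:109734981-109749458) ran from 178 to 299 CPM in wt (median 244) and from 133 upward in mutants (median 173) at 8 months, with no mutant above the highest wt library. The mutants D176, D170, C42 and D161 lay below every wt library, at 133, 143, 160 and 160 CPM, and the other 4 lay within the wt range. Those 4 low libraries are the 4 male mutants of this age, and the other 4 are the females. The log2 fold change was -0.51 (SE 0.14, edgeR adjusted p = 0.028). Without a term for sex it was -0.31 (edgeR adjusted p = 0.487), and Igf2 alone of the 3 members was called. Within set1 alone Mirg was at -0.57 (edgeR adjusted p = 0.0359) and within set2 alone at -0.37 (0.641). The RNAs that precede it in the cluster were not called. Meg3 had 56900 ± 10700 CPM in wt and 46400 ± 9710 in mutants (log2 fold change -0.23, edgeR adjusted p = 0.204), and Rian had medians of 927 and 1150 (0.10). As a share of Meg3 counts, Mirg was at 0.431% ± 0.0614 in wt and 0.399% ± 0.064 in mutants. Dlk1, on the paternal copy of the cluster, had 917 ± 201 and 668 ± 91.6 CPM (log2 fold change -0.37, edgeR adjusted p = 0.134). Within set2 alone Dlk1 was the 1 member called (-0.84, edgeR adjusted p = 0.0475), where 0.639% of all genes were, and in set1 it was at -0.20 (0.472). Within set1 alone the called members were Mirg and Blcap (0.68, edgeR adjusted p = 0.0249), a small membrane protein gene, where 4.34% of all genes were called; in set2 Blcap was at -0.20.

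Peg3 and Mirg lost their calls when 1 library was left out in 5 cases each: C47, C51, D265 or D282 for both, D276 for Peg3 and C42 for Mirg (edgeR adjusted p up to 0.0951 and 0.0649). Without the 3 endothelial-rich mutants both were called (-0.60 and -0.59). The nuclear RNA Malat1 was lower with them, at 36300 ± 9000 CPM in mutants and 50000 ± 10300 in wt, and Tuba1a was higher, at 886 ± 279 and 586 ± 345. Neuronal markers also differed at this age: dopaminergic markers summed to 7780 ± 1290 CPM in wt but 3410 ± 314 in mutants, with 0 of 10 genes higher, and GABA neuron markers to 246 to 494 in wt but 676 to 973 in mutants, with 5 of 5 higher. In such pools of sorted cells, fewer cells of a type and less RNA per cell cannot be told apart. The part of these shifts in the values of Peg3 and Mirg was not tested.

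**Figure D4:**
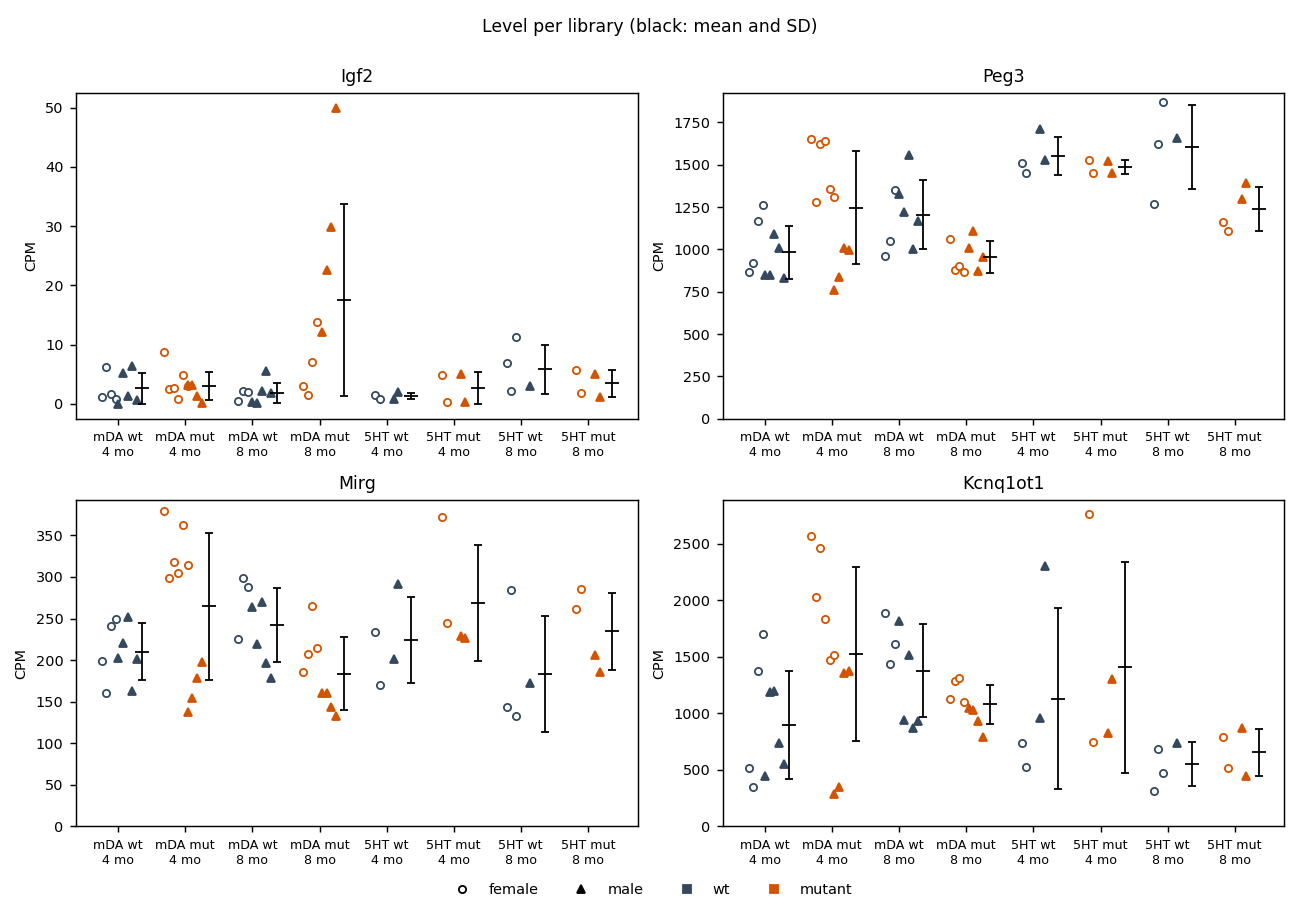
CPM of Igf2, Peg3, Mirg and Kcnq1ot1 in every library of the 8 groups; open circles are females, triangles males, orange mutants, and the black bars show mean and SD. Igf2 reaches up to 50 CPM in the mDA mutants at 8 months, though some of these libraries lie within the wt range. The other 3 genes overlap between mutants and wt at each age in mDA neurons too.

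Peg13, Airn, Blcap, Nnat, Gnas and Copg2 had estimates above 0 and an unadjusted p under 0.05 in mDA mutants at 8 months, and did not pass the adjusted test. Peg13, a paternal RNA inside Trappc9, had 92.0 ± 29.3 CPM in wt and 134 ± 35.8 in mutants (log2 fold change 0.57, SE 0.21, edgeR adjusted p = 0.12). Airn, the RNA that silences Igf2r on the paternal chromosome, had 5.29 ± 3.0 and 12.6 ± 5.73 CPM (log2 fold change 1.33, edgeR adjusted p = 0.228). Its target Igf2r had 51.1 ± 13 and 54.4 ± 17.7 CPM (-0.09). Kcnq1ot1 had 1380 ± 411 and 1080 ± 171 CPM (-0.38), and of its cis targets Slc22a18 and Phlda2 neither reached the counts needed for a test in mDA. Ube3a, the ubiquitin ligase gene of Angelman syndrome, silenced on the paternal copy in neurons, had 366 ± 86.6 and 286 ± 58.5 CPM (-0.36). Grb10, which in neurons is read from the paternal copy, ran from 261 to 347 CPM in wt and from 247 to 371 in mutants (-0.02). Impact, a regulator of translation, had an estimate of 0.10, Sgce, the epsilon-sarcoglycan gene beside Peg10, 0.15, Inpp5f, a phosphoinositide phosphatase gene, 0.17, and Trappc9, the host of Peg13, 0.05. Asb4, further along the Peg10 cluster, was less precise, at -0.48 with an interval from -1.33 to 0.36.

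The change of the genotype effect between the ages was tested in the same mDA fit. Of 31 members 3 were called (9.68%), against 6.11% of all genes, and all 3 were lower at 8 than at 4 months, as were 2.35% of all genes (3.76% were higher). They were Peg3 (-0.76, SE 0.17, edgeR adjusted p = 0.00535), Mirg (-0.72, SE 0.18, edgeR adjusted p = 0.0129) and Kcnq1ot1 (-1.0, SE 0.30, edgeR adjusted p = 0.041). In each, the estimate was above 0 at 4 months and below 0 at 8 months: 0.29 and -0.47 for Peg3, 0.21 and -0.51 for Mirg, 0.62 and -0.38 for Kcnq1ot1. Without a term for sex 0 of the 3 were called, and without the 4 set1 mutants of 4 months 0 were called, with values of -0.62, -0.73 and -1.05 in the latter. For Igf2 the change was 2.59 (edgeR adjusted p = 0.0688).

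In 5HT neurons at 4 months, 0 of 35 tested rows of members were called by edgeR, 0 had an unadjusted p under 0.05 and DESeq2 called 0, while 0.0128% of all 15633 genes were called. The median SE of the members was 0.30 here and 0.16 in mDA at 4 months. Accordingly only 22 of the 35 had an interval wholly within a log2 value of 1. Peg3, as an example of a precise value, had 1450, 1510, 1530 and 1710 CPM in wt and 1450, 1450, 1520 and 1530 in mutants (log2 fold change -0.05, interval -0.37 to 0.27).

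At 8 months in 5HT neurons, 0 of 35 were called by edgeR, against 0.397% of all genes, 4 had an unadjusted p under 0.05 (11.4%, against 4.9% of all genes), and DESeq2 called 0. The mutant and wt libraries did not overlap in 4 of the 35 (Peg10, Rian, Nnat and Usp29), as in 6.5% of all genes tested. Mest, a hydrolase gene read from the paternal copy, had 50.2, 52.8, 56.4 and 81.8 CPM in wt and 70.6, 88.5, 106 and 120 in mutants, with 1 wt library inside the mutant range (log2 fold change 0.71, SE 0.23, edgeR adjusted p = 0.373). Usp29 ran from 98.1 to 122 CPM in wt and had 67.0, 70.2, 78.2 and 82.7 in mutants, all lower (-0.49, SE 0.19, edgeR adjusted p = 0.638). Peg3 had 1270, 1620, 1660 and 1870 CPM in wt and 1110, 1160, 1300 and 1390 in mutants (-0.41, SE 0.16, edgeR adjusted p = 0.73). Peg10 ran from 93.0 to 151 CPM in wt (median 101) and had 50.9, 54.0, 57.9 and 76.9 in mutants (-1.02), and was called in a fit of these 2 groups alone. Igf2 had 2.17, 2.97, 6.87 and 11.3 CPM in wt and 1.21, 1.86, 5.02 and 5.80 in mutants (-0.68), and the endothelial and mural sums overlapped, at 84.7 to 110 and 74.8 to 151. Serotonergic markers summed to 10100 ± 683 CPM in wt but 2930 ± 266 in mutants at this age, and their part in these values was not tested.

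**Figure D5:**
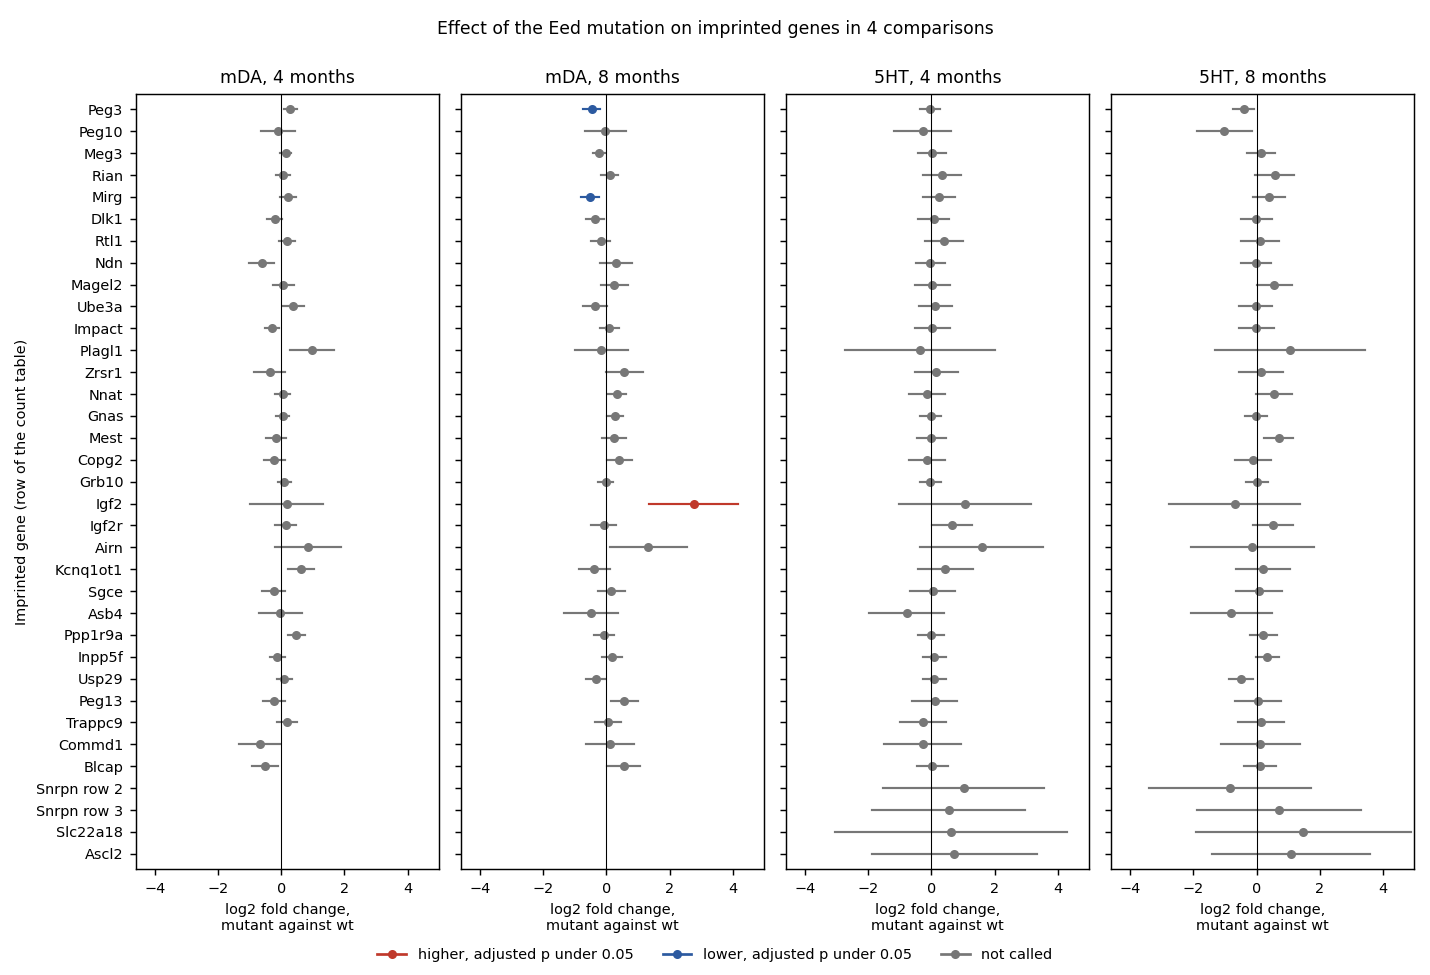
Log2 fold change between mutants and wt for each tested row of the imprinted genes in mDA and 5HT neurons at 4 and 8 months; points are estimates and lines the interval of 2 SE on each side. Red and blue mark the called genes, Igf2 at 2.76 and Mirg and Peg3 at -0.51 and -0.47 in mDA at 8 months, and all other points are grey.

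No difference between the cell types in the genotype effect passed the test. At 8 months 0 of 36 rows were called by edgeR (0.179% of all genes) and DESeq2 called 0. An unadjusted p under 0.05 was found for 2 rows (5.56%, against 7.69% of all genes). They were Mirg (-0.87, SE 0.27, edgeR adjusted p = 0.281) and Igf2 (3.46, SE 1.15, edgeR adjusted p = 0.361). Between 8 and 4 months in 5HT, edgeR called 0 of 35 (0.0128% of all genes) and DESeq2 called 0. Here 2 had an unadjusted p under 0.05 (5.71%, against 3.97% of all genes). Between the ages in wt neurons, edgeR called 0 of 30 members in mDA and 0 of 32 in 5HT. Of all genes 0% were called in each. At an unadjusted p under 0.05 there were 10 members in wt mDA (33.3%, against 11.1% of all genes). In wt 5HT there were 3 (9.38%, against 5.09% of all genes). DESeq2 called 2 in wt mDA, Kcnq1ot1 and Ube3a, and 0 in wt 5HT. These 2 had estimates of opposite sign in the cell types: 0.58 and 0.45 in mDA, and -0.67 and -0.76 in 5HT, a difference that was not tested.

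Genes outside the list give the members a frame. Of 41 tested genes of a second list of other imprinted genes, 2 were higher and 1 lower in mDA mutants at 4 months (7.32%, against 1.17% of all genes), and 7 were higher and 1 lower at 8 months (19.5%, against 4.32%). Xlr3b, which has near-identical copies and is uncertain for that reason, was among the higher ones at both ages (1.54 and 2.42). Sfmbt2, a Polycomb group protein gene imprinted in extra-embryonic tissue, had 18.3 ± 5.86 CPM in wt and 72.8 ± 32.9 in the younger mutants (1.87 on the log2 scale, edgeR adjusted p = 2.96e-07). At 8 months it had 20.9 ± 9.26 and 81.0 ± 9.25 (1.82, edgeR adjusted p = 7.53e-06). Rasgrf1, a paternally expressed exchange factor of Ras, had 121 ± 40.0 and 297 ± 42.7 CPM at 8 months (1.2, edgeR adjusted p = 3.12e-07), and Bcl2l1, an inhibitor of apoptosis, 33.7 ± 11 and 67.5 ± 15.4 (1.25). Cd81, of the Kcnq1 domain, was lower at 4 months (-0.63) and higher at 8 months (0.88). Summed oligodendrocyte markers of mDA libraries had medians of 1200 CPM in wt and 558 in mutants at 4 months, with 0 of 10 genes higher. At 8 months these medians were 680 and 1090, with 9 of 10 higher, and the ranges overlapped at both ages. The part of such shifts in the calls of this list was not tested. In 5HT, 0 of 41 were called at 4 months (1 at an unadjusted p under 0.05, DESeq2 0), and at 8 months Snhg14, the antisense RNA of Ube3a, rose from 44.0 ± 6.72 to 108 ± 20.1 CPM (1.26, edgeR adjusted p = 0.00673) and Ddc fell (-1.08), which makes 4.88% of the list against 0.397% of all genes. Ddc encodes the decarboxylase of serotonin and dopamine synthesis, is also on the serotonergic and dopaminergic marker lists used here, and had a mean of 947 CPM in that wt group. The serotonergic sum was lower in the same mutants, as given above. Ube3a had 160 ± 22.6 and 160 ± 24.3 CPM in the wt and mutant 5HT groups of 8 months (-0.03), and shares 27.3% of its exon bases with opposite-strand genes.

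Of 24 tested genes for keeping imprints and DNA methylation, such as Dnmt1, Trim28 and Tet enzymes, edgeR called 0 in each of the 4 genotype comparisons. At an unadjusted p under 0.05 there were 3 in mDA at 4 and 3 at 8 months (12.5% each, against 14.5% and 17.5% of all genes). In 5HT there were 4 and 2 at these ages (16.7% and 8.33%, against 6.4% and 4.9%). DESeq2 called 1, 0, 1 and 1 in that order. Ctcf, which binds the control region between H19 and Igf2, was called lower in the change of the mDA effect from 4 to 8 months (-0.94, edgeR adjusted p = 0.0188). It was the 1 gene of the 24 called there (4.17%, against 6.11% of all genes). Of 11 tested PRC2 subunit genes edgeR called 0 in each genotype comparison, and DESeq2 called 1, 0, 0 and 0. In the same order 3, 4, 1 and 0 had an unadjusted p under 0.05 (27.3%, 36.4%, 9.09% and 0%), against 14.5%, 17.5%, 6.4% and 4.9% of all genes.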

How the data were processed

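The values are raw counts of reads per gene, as the authors deposited them for 51 libraries. Reads were aligned with STAR 2.7.0a, per the submitters' processing notes; the sources used here name no counting tool and no strand setting. The members and gene lists were chosen with earlier results of these data known. The reporter row (up to 0.00294% of the counts in any library) stayed out. Groups came from the labels. Counts were scaled by TMM, filtered by expression (minimum count 10) and tested with edgeR 4.0.16 (quasi-likelihood, limma 3.58.1, R 4.3.3), with terms for group, sex and sequencing set where the groups allowed; adjusted p-values cover all genes tested. The naming rule took every called member (the 10 with the smallest p where more were called) and up to 3 uncalled members with the smallest p in each comparison; cluster neighbours and the other uncalled members given with values were picked after these were seen. Of the other lists, up to 4 called genes were named per comparison. Alternatives were DESeq2 1.42.0, other filters, terms and groups, single sets and leaving out each library. The model was tested on simulated data. P-values measure the spread between animals, and limits from 3 counts cover counting error only. Gene spans and start windows are from RefSeq (GRCm38.p6).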

Additional observations from a re-analysis of the deposited data

Results flagged for a closer look

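The genotype effect in mDA neurons differed between 8 and 4 months for Peg3 (-0.76), Mirg (-0.72) and Kcnq1ot1 (-1.0 on the log2 scale), by the test of the difference itself. Peg3 and Mirg kept this call with each of the 35 mDA libraries left out in turn, and Kcnq1ot1 lost it in 11 of the 35. In 8 other settings Peg3 and Mirg lost the call in 2 each and Kcnq1ot1 in 4. Among these were the fits without a term for sex and without the set1 mutants of 4 months, where none of them was called.

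Single libraries stood far from the rest of their group in 2 of 32 groups of values looked at (4 members in 8 groups), where chance gives about 1 in 20. Mirg was at 372 CPM in the library S427 of the 5HT mutants at 4 months. Igf2 was at 5.51 CPM in the library D107 of the mDA wt at 8 months.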

How the results depend on the processing

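No value changed its direction while called. In mDA at 4 months DESeq2 called 1 member and set1 alone 11; leaving out single libraries gave 0 to 4, with 4 without C213 and 2 without C214. At 8 months 1 was called without a sex term (Igf2) and 1 in set2 alone (Dlk1, not called in the full fit), with Mirg and Blcap called in set1, and leaving out single libraries gave 1 to 3, with 1 without C47, C51, D265 or D282. For the change between 4 and 8 months DESeq2 called 7, a minimum count of 30 gave 5, no sex term 0, omitting the 4 set1 mutants 0, and omitting the 3 endothelial-rich mutants 7. The last 2 settings were chosen after seeing the data. Leaving out single libraries gave 2 to 8 there, with 8 without C213, 7 without C248, D878 or C214, and 5 without D107, D161 or D833. In 5HT at 8 months a fit of the 2 groups alone called 1. Between ages in wt mDA DESeq2 called 2, and leaving out single libraries gave 0 to 2, with 2 without D833. The cause of these shifts was not tested. In the main fits 1.17% of all genes were called in mDA at 4 months, 4.32% at 8 months and 6.11% for the change between them. For single sets in which a member was called, the shares of all genes are given above. For the other settings they are not given here, so those counts of members stand without a background. No paired analysis was possible because the labels give each animal its own number, shared by no other group.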
